A study of Mus musculus with 9 samples.

Results

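The genes of the RANKL, osteoprotegerin and CSF1 axis were examined in fracture callus, the repair tissue that bridges a broken bone. The 7 members were taken by gene symbol, and all 7 were found among the 22054 genes of the expression table: Tnfsf11 (RANKL), Tnfrsf11b (osteoprotegerin, OPG), Tnfrsf11a (RANK), Traf6, Csf1, Il34 and Csf1r. Bulk poly(A) RNA had been sequenced from 9 callus libraries of male C57BL/6J mice, recorded as 7 weeks old, whose femur had been fractured. Every mouse had been injected intraperitoneally once a day for a week with 200 μl of solution. The H-151 group received 750 nmol of H-151, an inhibitor of STING, the SR-717 group received 30 mg/kg of SR-717, an agonist of STING, and the PBS group received phosphate-buffered saline, with 3 libraries in each group. STING is an innate immune sensor adaptor that acts downstream of cytosolic DNA. No genetic alteration was used. The labels number the libraries as biological samples without saying whether each came from a separate mouse, so the p-values measure the spread between these libraries.

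RANKL is made by osteoblast lineage cells, hypertrophic chondrocytes and some lymphocytes, and it binds RANK on macrophage lineage precursors. RANK recruits the adaptor TRAF6, which leads to NF-κB activity and to the transcription factor NFATc1, the driver of osteoclast differentiation. OPG is a secreted decoy receptor that binds RANKL and keeps it from RANK, so the balance of RANKL to OPG is widely used as a measure of the drive to resorption. CSF1 and IL-34 are alternative ligands of the CSF1 receptor, which keeps the same precursors alive and dividing.

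Promoters of 4 of the 7 members (Tnfsf11, Tnfrsf11a, Csf1 and Traf6) were matched in a RefSeq table of build GRCm38.p6. The 250 bases before the start of Tnfsf11 (chr14:78308044-78308293, minus strand) and of Csf1 (chr3:107760470-107760719, minus strand) are shown 5′ to 3′, because these genes encode the leading ligand of each receptor and their levels spread differently among the libraries. In the Tnfsf11 sequence the capitals mark overlapping TATAA matches on both strands, and in the Csf1 sequence they mark a κB consensus match and 2 GGGCGG matches.
Tnfsf11: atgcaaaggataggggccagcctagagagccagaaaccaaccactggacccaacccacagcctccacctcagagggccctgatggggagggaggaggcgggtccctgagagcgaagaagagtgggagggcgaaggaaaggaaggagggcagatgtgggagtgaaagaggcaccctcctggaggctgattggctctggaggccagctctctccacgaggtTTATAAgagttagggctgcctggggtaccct
Csf1: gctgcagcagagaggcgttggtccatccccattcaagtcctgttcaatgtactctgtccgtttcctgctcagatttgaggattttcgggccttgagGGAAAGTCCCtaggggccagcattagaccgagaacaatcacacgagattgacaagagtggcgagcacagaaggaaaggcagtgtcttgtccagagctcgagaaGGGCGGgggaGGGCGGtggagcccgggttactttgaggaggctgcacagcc
In these windows 8 motifs were searched on both strands: the κB consensus, the AP-1 site TGANTCA, the cAMP response element TGACGTCA, the interferon-gamma activated site TTCNNNGAA, the Runx site TGTGGT, the TATA box TATAA, the GC box GGGCGG and the PU.1 core GAGGAA. Tnfsf11 held TATAA at -30 to -26 on its own strand and at -31 to -27 on the other, counted from the start of transcription, and no match to the other motifs. TATAA was present in 22.8% of the 32851 promoters of the table. Csf1 held a κB consensus match at -154 to -145 and GC boxes at -51 to -46 and -41 to -36. A κB match was present in 7.25% of all promoters and a GC box in 32.7%. Tnfrsf11a held 4 GC boxes. Traf6 held 2 GC boxes, 2 PU.1 cores (in 23.3% of promoters) and a Runx site (in 14.0%). AP-1, cAMP response and interferon-gamma activated sites, found in 6.75%, 1.55% and 7.02% of promoters, were matched in none of the 4. These are letter matches in a short window and say nothing of binding.

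In GRCm38 the gene bodies lie at chr14:78277445-78308043 (Tnfsf11, minus strand), chr15:54250619-54278484 (Tnfrsf11b, minus), chr1:105780718-105847981 (Tnfrsf11a, plus), chr2:101678429-101701669 (Traf6, plus), chr3:107741048-107760469 (Csf1, minus) and chr8:110741829-110805924 (Il34, minus). Exons of Il34 overlap antisense transcripts Gm15894 by 22 bases and Gm15895 by 75 bases, and Csf1r overlaps Hmgxb3 on the opposite strand by 873 bases. The libraries were stranded, but the strand setting of the counting is not given in the sources used here, which leaves the reads of these overlaps uncertain.

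The libraries held 16987398 to 23272480 counts. SR-717 replicate 1 stood apart from the rest, with a score of 100.6 on a first principal component that carried 46.6% of the variance, followed by PBS replicate 1 at 38.8, while the other 7 lay between -28.8 and -4. Against the bone label, summed CPM was 25100 to 48800 for osteoblast and 6220 to 11300 for osteoclast markers, beside 4380 to 25300 for muscle, 14.3 to 56.6 for T cell and 11.6 to 27.6 for keratinocyte markers. The cathepsin gene Ctsk, for example, lay between 2192 TPM in SR-717 replicate 1 and 5119 TPM in PBS replicate 3. TPM, a share of transcripts scaled for gene length, was used for levels between genes, and CPM, a share of counts after normalization for library composition, for a gene between libraries. In bulk RNA, fewer cells of a type and less RNA per cell cannot be told apart.

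Csf1r was the most abundant member, with a mean of 195 TPM over the 9 libraries. Csf1 followed with 62.6 TPM. Csf1r exceeded Csf1 in 9 of 9 libraries, Csf1 exceeded Traf6 in 9 of 9, and the ranges of neither pair overlapped. The other members were within a narrow band of means, at 10.8 TPM for Traf6, 10.5 for Tnfsf11, 8.40 for Tnfrsf11a, 6.87 for Il34 and 4.02 for Tnfrsf11b. Neighbouring genes in this lower order had overlapping ranges, although Il34 exceeded Tnfrsf11b in 9 of 9 libraries. The mean of Tnfsf11 does not describe a typical library, since it exceeded Tnfrsf11a in only 3 of 9.

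**Figure D1:**
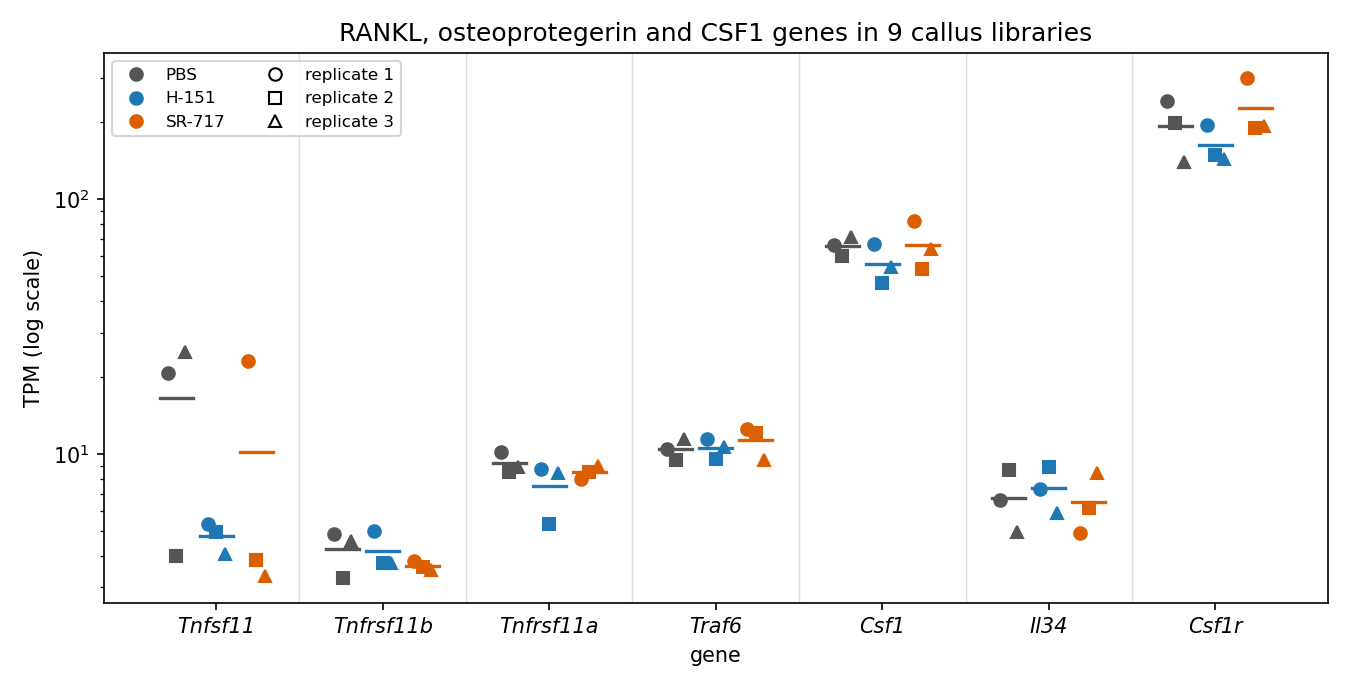
Levels of the 7 genes in TPM on a log scale, with 1 point per library, colour for the treatment, shape for the replicate number and a bar for the group mean (n = 3). Tnfsf11 is split between 3 libraries at 20.7 to 25.2 TPM and 6 libraries at 3.32 to 5.31 TPM, whereas each other gene stays within 1.33-fold to 2.13-fold from lowest to highest.

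Tnfsf11, the ligand that drives osteoclast formation, was the member that varied most. In the PBS group it was 20.7, 3.98 and 25.2 TPM in replicates 1, 2 and 3. In the H-151 group it was 5.31, 4.94 and 4.05 TPM. In the SR-717 group it was 23.3, 3.85 and 3.32 TPM. PBS replicates 1 and 3 and SR-717 replicate 1 were therefore high, and no library lay between these 3 and the remaining 6. On the CPM scale the high libraries had 24.3, 31.7 and 31.2 CPM, and the others 3.97 to 5.82 CPM. The low and the high values occurred together in both the PBS and the SR-717 group, while the 3 H-151 libraries were all low and close to each other (5.68 ± 0.206 CPM, SD, n = 3).

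The split was far larger than counting error. Tnfsf11 had between 68 and 605 counts per library, and its coefficient of variation over the 9 libraries was 93.3% of the mean, where counting alone gives 8.61%. The SD of its log2 CPM was 1.27, above that of 97.2% of the 14294 genes compared, for which the median was 0.31. Among the 1880 genes within 0.5 log2 units of its mean level, 97.2% also had a lower SD. The other 6 members had SDs from 0.21 for Tnfrsf11b to 0.33 for Csf1r, which placed them between 30.2% and 53.9% of all genes.

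Comparison of H-151 with PBS asked how inhibition of STING bore on the callus. The fitted level of Tnfsf11 was lower in H-151, with a log2 fold change of -1.82 ± 0.63 (SE, n = 3 against 3) and a 95% interval from -3.33 to -0.32. Its edgeR quasi-likelihood p was 0.0242, and the p adjusted over 14085 genes was 1, so the difference did not pass the test. Tnfsf11 was the 1 member of 7 past the study's thresholds of an unadjusted p under 0.05 and a 1.5-fold change, which 60 genes (0.426%) passed. The groups overlapped, since PBS replicate 2 at 4.48 CPM was below all 3 H-151 libraries (5.45 to 5.82 CPM). Between libraries of the same number, the difference in log2 CPM was -2.05, 0.37 and -2.52. Without PBS replicate 2 the log2 fold change was -2.29 ± 0.19 (edgeR, unadjusted p = 2.23e-05, adjusted p = 0.317). Without PBS replicate 3 it was -1.33 ± 0.62 with an adjusted p of 1. Leaving out PBS replicate 1 or 3 or any H-151 library took the unadjusted p to between 0.0587 and 0.073, so that Tnfsf11 no longer passed the study's thresholds. By the DESeq2 Wald test the unadjusted p was 0.00292 (log2 fold change -1.82), without a call by the adjusted p. Other filters and size factors in edgeR gave an unadjusted p of 0.0189 to 0.0259. The unadjusted p was 0.0473 when replicate number entered as a block (log2 fold change -1.48), 0.0738 with all 9 libraries in 1 fit and 0.0572 with limma on log2(TPM + 1), where the difference was -1.30.

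In the comparisons of SR-717 the values moved with single libraries. Against PBS, the log2 fold change of Tnfsf11 was -0.59 ± 0.99 (edgeR, adjusted p = 1), and against H-151 it was 1.22 ± 0.80 (adjusted p = 0.996). SR-717 replicate 1 alone was above the H-151 range. Without it, the value against H-151 turned from 1.22 to -0.37 ± 0.22, and the value against PBS went from -0.59 to -2.18 ± 0.82 (edgeR, adjusted p = 1), past the study's thresholds described above. With SR-717 replicate 2 or 3 left out instead, the difference from H-151 was 1.62 or 1.65, and that from PBS was -0.19 or -0.16. The difference from PBS was also -1.07 without PBS replicate 2, -0.43 without PBS replicate 1 and -0.11 without PBS replicate 3. The 3 comparisons share groups and are not independent of each other.

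**Figure D2:**
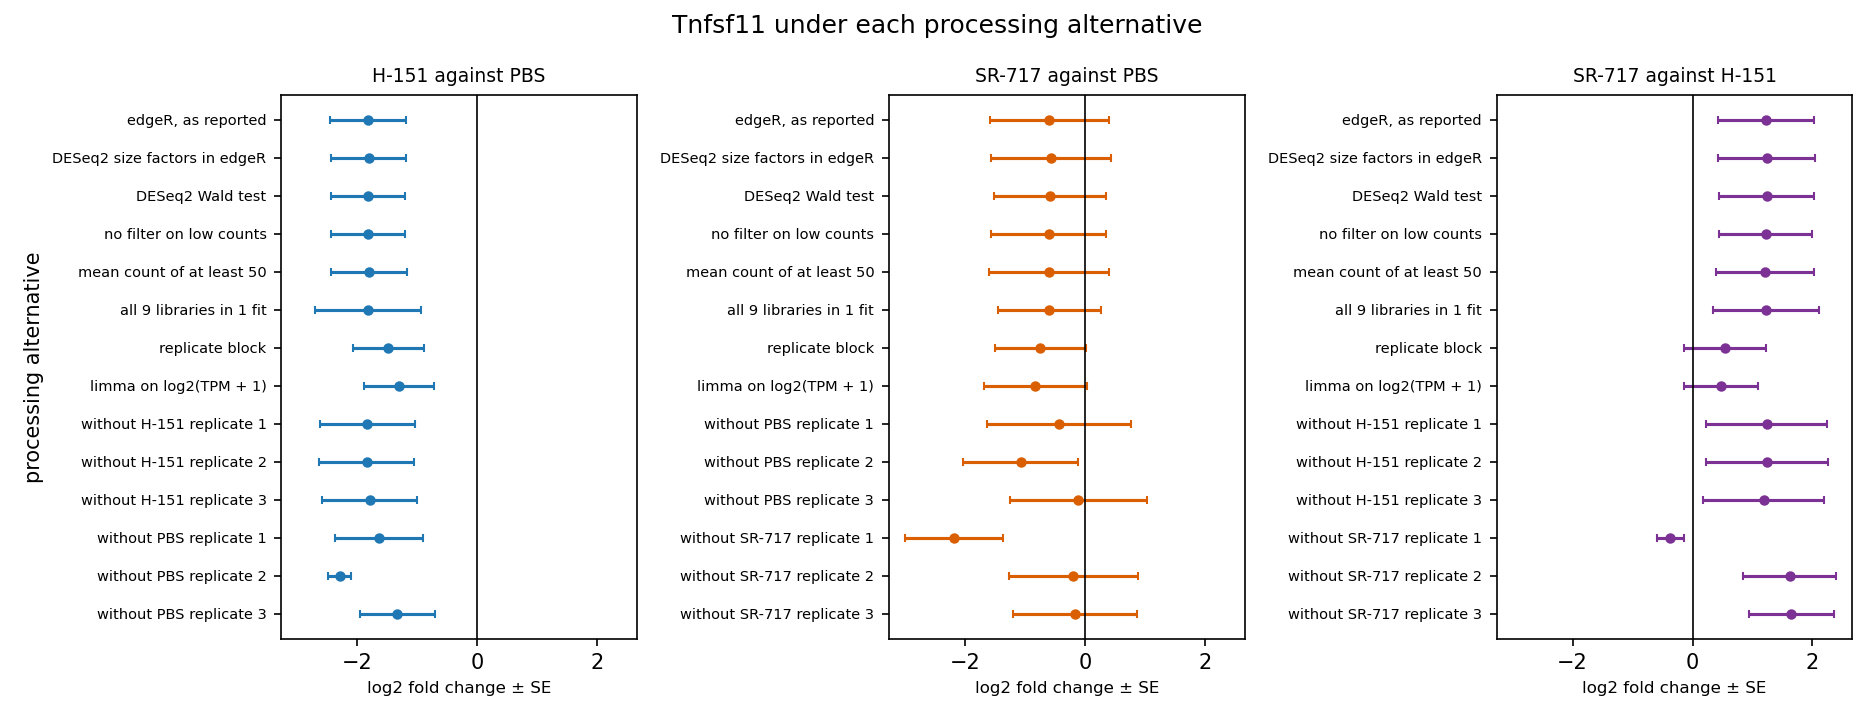
Log2 fold change of Tnfsf11 with its SE (x axis) under each processing alternative (y axis), in a panel for each comparison. The values for H-151 against PBS stay between -2.29 and -1.30, whereas those for SR-717 against H-151 turn from 1.22 to -0.37 without SR-717 replicate 1.

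The decoy receptor gene Tnfrsf11b did not share this split. It was 4.87, 3.28 and 4.58 TPM in PBS replicates 1 to 3, 5.00, 3.75 and 3.74 TPM in H-151, and 3.82, 3.62 and 3.52 TPM in SR-717. The ranges of the 3 groups overlapped, and the highest library exceeded the lowest by 1.53-fold. Its log2 fold changes were -0.02 ± 0.25 for H-151 against PBS, -0.12 ± 0.26 for SR-717 against PBS and -0.11 ± 0.19 for SR-717 against H-151 (edgeR, adjusted p = 1, 1 and 0.996). With 91 to 140 counts per library, counting alone gives a coefficient of variation of 9.23%, against 14.5% found, so small differences were not resolvable at this depth. The interval for SR-717 against H-151 ran from -0.58 to 0.36.

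The ratio of ligand to decoy receptor therefore followed the ligand. Tnfsf11 to Tnfrsf11b, as a ratio of TPM, was 4.26, 1.21 and 5.51 in PBS replicates 1 to 3. It was 1.06, 1.32 and 1.08 in H-151. It was 6.10, 1.07 and 0.942 in SR-717. The H-151 libraries were all near parity, and the other groups each held values near parity and values above 4. The geometric mean was 3.06 in PBS, 1.15 in H-151 and 1.83 in SR-717. The differences in mean log2 ratio were -1.41 for H-151 against PBS (pooled SD 0.83, two-sided exact permutation p = 0.2), -0.74 for SR-717 against PBS (pooled SD 1.35, p = 0.6, same exact test) and 0.67 for SR-717 against H-151 (pooled SD 1.07, p = 0.9, same exact test). The last value turned to -0.20 without SR-717 replicate 1, and the difference from PBS became -1.61. Of 18 tests of 6 ratios, the lowest exact p was 0.2 and the lowest adjusted p was 0.9, where 3 against 3 cannot give less than 0.1. Leaving out PBS replicate 2 took the difference of H-151 from PBS to -2.08 with an exact p of 0.1, the smallest that 3 against 2 allows.

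**Figure D3:**
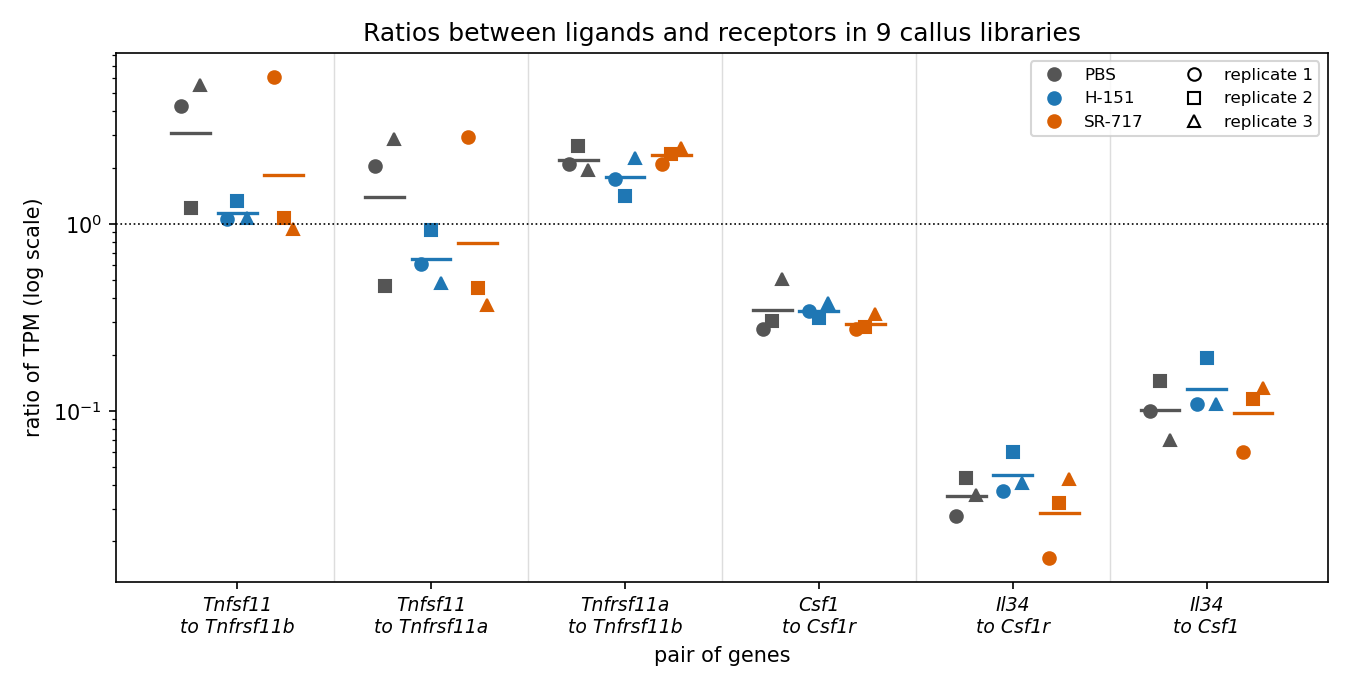
Ratios of TPM between pairs of genes on a log scale, with 1 point per library, a bar for the geometric mean of each group (n = 3) and a dotted line at a ratio of 1. The ratio of Tnfsf11 to Tnfrsf11b lies between 0.942 and 1.32 in 6 libraries and between 4.26 and 6.10 in PBS replicates 1 and 3 and SR-717 replicate 1.

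Tnfrsf11a, the receptor through which RANKL acts, was 10.2, 8.54 and 8.90 TPM in PBS, 8.71, 5.30 and 8.43 TPM in H-151 and 8.01, 8.53 and 8.98 TPM in SR-717. H-151 replicate 2 was low, and the remaining libraries lay between 8.01 and 10.2 TPM. Its log2 fold changes were -0.27 ± 0.24 for H-151 against PBS, -0.02 ± 0.16 for SR-717 against PBS and 0.25 ± 0.23 for SR-717 against H-151, and none passed the edgeR test. The ratio of Tnfsf11 to Tnfrsf11a was above 1 in the same 3 libraries (2.04, 2.84 and 2.91) and between 0.369 and 0.931 in the other 6. The ratio of Tnfrsf11a to Tnfrsf11b stayed between 1.41 and 2.60 over all 9 libraries.

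Traf6, the adaptor of RANK, was the steadiest member by range of TPM. It was 10.5, 9.47 and 11.5 TPM in PBS, 11.5, 9.57 and 10.7 TPM in H-151, and 12.6, 12.1 and 9.49 TPM in SR-717. The 3 groups overlapped, and its log2 fold changes were 0.03 ± 0.17 for H-151 against PBS, 0.22 ± 0.21 for SR-717 against PBS and 0.18 ± 0.19 for SR-717 against H-151.

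Csf1, the survival factor of osteoclast precursors and macrophages, was 66.2, 60.0 and 70.9 TPM in PBS, 66.8, 46.9 and 54.1 TPM in H-151, and 81.8, 53.3 and 63.8 TPM in SR-717. SR-717 replicate 1 was the highest library and H-151 replicate 2 the lowest, and all 3 groups overlapped. Between libraries of the same number, H-151 differed from PBS by -0.09, -0.25 and -0.30 on the log2 CPM scale. The block left the fold change at -0.21 without a call. Its log2 fold changes were -0.21 ± 0.17 for H-151 against PBS, 0.14 ± 0.23 for SR-717 against PBS and 0.34 ± 0.22 for SR-717 against H-151 (edgeR, adjusted p = 1, 1 and 0.996). Without SR-717 replicate 1 the difference of SR-717 from PBS turned to -0.09 and that from H-151 was 0.12.

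Il34, the alternative ligand of the CSF1 receptor, was 6.63, 8.68 and 4.97 TPM in PBS, 7.29, 8.94 and 5.88 TPM in H-151, and 4.91, 6.16 and 8.41 TPM in SR-717. Each group spanned most of the overall range. Its log2 fold changes lay between -0.12 and 0.15 with SEs of 0.25 to 0.28. Between libraries of the same number, H-151 differed from PBS by 0.02, 0.11 and 0.34 on the log2 CPM scale. Csf1 made up 84.0% to 94.3% of the summed TPM of both ligands, lowest in H-151 replicate 2 and highest in SR-717 replicate 1.

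Csf1r, the receptor tyrosine kinase of monocytes, macrophages and osteoclast precursors, was 243, 198 and 140 TPM in PBS, 195, 149 and 144 TPM in H-151, and 299, 191 and 194 TPM in SR-717. On the CPM scale the 3 SR-717 libraries (371 to 608 CPM) were all above the 3 H-151 libraries (268 to 334 CPM), while on the TPM scale H-151 replicate 1 exceeded 2 SR-717 libraries. Csf1r was the 1 member of 7 whose SR-717 and H-151 libraries did not overlap in CPM, and 5.19% of all 14151 genes did the same. Its log2 fold change was 0.53 ± 0.24 with an interval from -0.04 to 1.11 (edgeR, adjusted p = 0.996). SR-717 replicate 1 carried much of it, and without that library the value was 0.26 ± 0.14. The unadjusted edgeR p was 0.064, with 0.0416 for all 9 libraries in 1 fit and 0.0498 with the replicate block. The DESeq2 Wald test gave 0.0486 and limma on log2(TPM + 1) gave 0.0812. With a library left out the edgeR p was 0.0505 to 0.185, and Csf1r passed the study's thresholds in none of these fits. The log2 fold changes against PBS were -0.24 ± 0.17 for H-151 and 0.30 ± 0.26 for SR-717, the latter 0.03 ± 0.20 without SR-717 replicate 1. The ratio of Csf1 to Csf1r was 0.273, 0.303 and 0.506 in PBS, 0.342, 0.315 and 0.376 in H-151 and 0.274, 0.279 and 0.329 in SR-717, so PBS replicate 3 was the 1 library above 0.376.

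**Figure D4:**
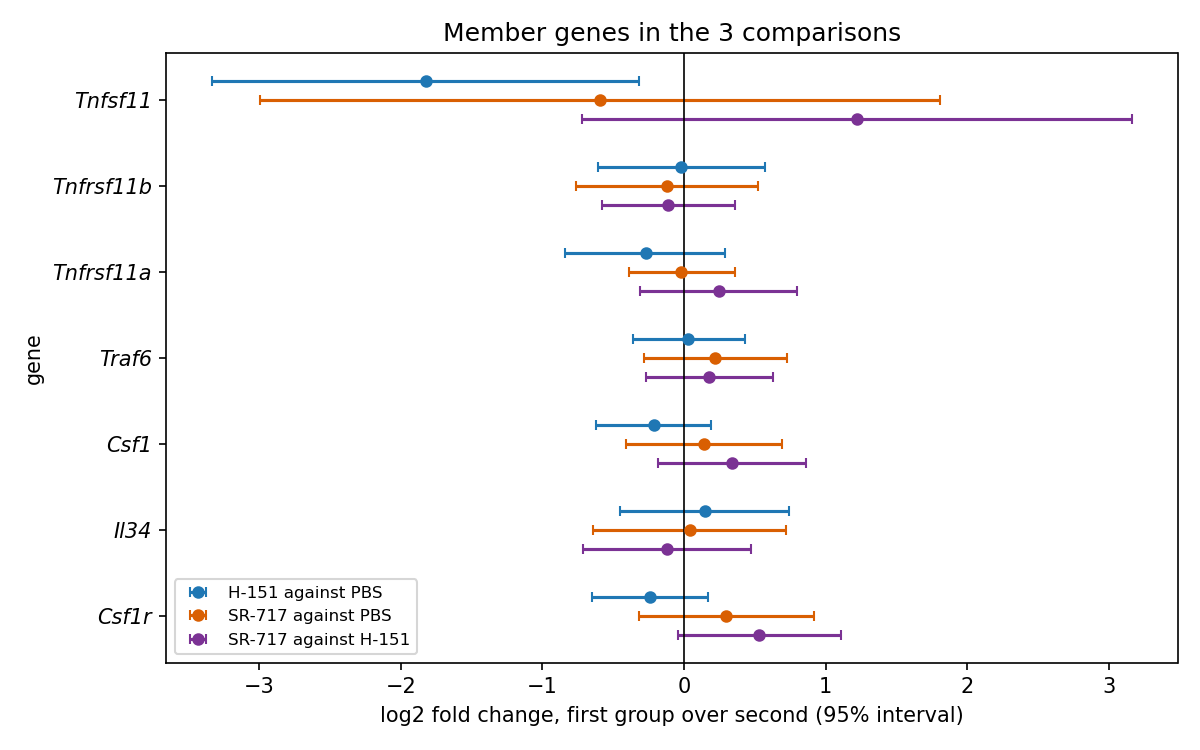
Log2 fold change of each gene with its 95% interval from edgeR (x axis) in the 3 comparisons (colours, n = 3 against 3). The intervals include 0 for each gene and comparison apart from Tnfsf11 in H-151 against PBS, which runs from -3.33 to -0.32, and the widest intervals are those of Tnfsf11.

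By the adjusted edgeR p under 0.05, 0 of 7 members were called in each comparison, as were 0.0% of all genes in SR-717 against H-151, 0.0% in SR-717 against PBS and 0.0% in H-151 against PBS. At an unadjusted p under 0.05 there were 146, 97 and 91 genes, with 0, 0 and 1 member among them, and DESeq2 called 1, 0 and 0 genes at an adjusted p under 0.05. The study's thresholds were passed by 0 members and 0.756% of genes in SR-717 against H-151, and by 0 members and 0.519% of genes in SR-717 against PBS. For SR-717 against PBS and H-151 against PBS, 0 members had groups that did not overlap, beside 3.75% and 3.87% of all genes. The median log2 fold change of the 7 members was 0.25, 0.04 and -0.21 in these comparisons, in the order SR-717 against H-151, SR-717 against PBS and H-151 against PBS, beside 0.02, 0.01 and -0.02 over all genes. When replicate number entered as a block, the genes past the study's thresholds went from 73 to 443 in SR-717 against PBS and from 60 to 263 in H-151 against PBS, and the members among them stayed at 0 and 1.

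Genes further down the same pathways were described through lists. Of 23 genes downstream of RANK (TRAF adaptors, kinases, NF-κB and AP-1 subunits, Nfatc1), 0 passed the adjusted test or the study's thresholds in any comparison. Their median log2 fold change was 0.31 for SR-717 against H-151, with 21 of 23 above 0, 0.20 for SR-717 against PBS, with 17 above 0, and -0.09 for H-151 against PBS, with 5 above 0. The mean log2 CPM of this list was 5.99 in SR-717 replicate 1 and 5.31 in both other SR-717 libraries, beside 5.23 to 5.30 in H-151 and 5.28 to 5.57 in PBS. SR-717 replicate 1 also had the highest macrophage level, 8.20 against 5.67 to 7.05 in the others, and its part in this list was not tested. Nfatc1, the transcription factor that drives osteoclast differentiation, lay between 52.5 and 69.3 TPM in all 9 libraries, and its log2 fold changes were 0.04, -0.04 and -0.09. Fos, an AP-1 subunit needed for osteoclast formation, was highest in SR-717 replicate 1 at 87.1 TPM and PBS replicate 1 at 62.6 TPM, with 22.2 to 50.4 TPM in the others. The log2 fold changes of Fos were 0.49 ± 0.47, 0.64 ± 0.59 and 0.14 ± 0.41, in the same order. With the replicate block, Fos passed the study's thresholds in SR-717 against PBS, the 1 gene of this list to do so. With the block 443 of all 14070 genes did the same, and 0 passed the adjusted test. Of 14 genes downstream of the CSF1 receptor, 0 passed either rule, and the medians were 0.33, 0.39 and -0.05. Their level was 7.11 in SR-717 replicate 1 and 6.27 and 6.19 in the other SR-717 libraries, which lay within the H-151 (6.15 to 6.35) and PBS (6.17 to 6.52) ranges.

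The resorption genes had their own order of libraries, and their list level correlated with Tnfsf11 at a Pearson r of -0.39 over the 9 libraries, as a description. The osteoclast marker list of 12 genes had medians of 0.06, -0.16 and -0.24, and 0 genes passed either rule. Its mean log2 CPM was 6.68 in SR-717 replicate 1 and 7.09 in PBS replicate 1, both with high Tnfsf11, and 7.38 in PBS replicate 3, also with high Tnfsf11, within an overall range of 6.68 to 7.59. Acp5, which encodes tartrate-resistant acid phosphatase, was lowest in SR-717 replicate 1 at 1836 TPM and highest in PBS replicate 3 at 3782 TPM. Its log2 fold changes were -0.02, -0.25 and -0.24. Those of Ctsk were 0.06, -0.20 and -0.27. Calcr, the calcitonin receptor gene of mature osteoclasts, was 0.636 TPM in SR-717 replicate 1, 3.55 TPM in H-151 replicate 3 and 1.29 to 1.85 TPM in the other 7.

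Alternative partners of the ligands gave no call. Lgr4, another receptor of RANKL, was 6.39, 9.84 and 23.1 TPM in PBS, 10.4, 8.91 and 15.7 TPM in H-151 and 4.05, 12.2 and 10.2 TPM in SR-717, with log2 fold changes of -0.38, -0.52 and -0.14. The high-Tnfsf11 libraries thus held both the lowest and the highest values of Lgr4. Ptprz1 and Sdc1, which can bind IL-34, had log2 fold changes of -0.30 and 0.33 for SR-717 against H-151, -0.34 and -0.10 for SR-717 against PBS and -0.05 and -0.44 for H-151 against PBS. Of the 7 genes of this list, 0 passed either rule, with medians of 0.00, -0.10 and -0.14.

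Cytokines, receptors and enzymes known to raise RANKL in stromal cells were high in 2 of the 3 libraries in which Tnfsf11 was high. The mean log2 CPM of this list of 15 genes was 5.62 in SR-717 replicate 1 and 4.99 in PBS replicate 1, and 3.31 to 3.93 in the other 7, with the lowest value in PBS replicate 3, where Tnfsf11 was highest. Il1b was 1660 TPM in SR-717 replicate 1, 271 TPM in PBS replicate 1 and 5.46 to 75.5 TPM elsewhere. Tnf was 82.3 TPM in SR-717 replicate 1, 22.7 TPM in PBS replicate 1 and 2.31 to 4.92 TPM elsewhere. Il6 was 14.1 TPM and 21.6 TPM in these libraries, at most 1.91 TPM in the others and at 0 in PBS replicate 3. Ptgs2, the inducible prostaglandin synthase, was 89.6 TPM in SR-717 replicate 1, 17.4 TPM in PBS replicate 1 and 4.31 to 12.7 TPM elsewhere. The high value of Tnfsf11 in PBS replicate 3 was thus not accompanied by high Il1b, Tnf, Il6 or Ptgs2. Of the 13 genes of the list that were tested, 1 passed the study's thresholds in SR-717 against H-151, which was Tnf (log2 fold change 3.37 ± 1.33, edgeR, adjusted p = 0.996), and 0 passed in the other comparisons. Without SR-717 replicate 1 the value for Tnf was 0.38 ± 0.34. Il1b had a log2 fold change of 4.20 ± 1.93 in that comparison (edgeR, adjusted p = 0.996), which turned to -0.47 ± 0.78 without SR-717 replicate 1, and Il11, a cytokine of stromal cells, one of -0.37 ± 0.70. With the replicate block, Il1b, Il6ra and Pth1r passed the study's thresholds in SR-717 against PBS, 2 of them higher and 1 lower in SR-717. Il1b was among the higher, with a log2 fold change of 1.98 ± 0.33 (edgeR, adjusted p = 0.999). Without the block its value in SR-717 against PBS was 2.76 ± 2.15. That value turned to -1.94 ± 1.65 when SR-717 replicate 1 was left out.

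Some cell type markers set the libraries with high Tnfsf11 apart in either summed CPM or mean log2 CPM, and others differed among them. Summed CPM of the fibroblast list (8 genes) was 4100 and 4620 in PBS replicates 1 and 3 and 4500 in SR-717 replicate 1, against 2220 to 3550 in the other 6, although its mean log2 CPM overlapped (8.12 to 8.48 against 7.50 to 8.18). The B cell list (7 genes, Ms4a1 at 0 in PBS replicate 1) had its lowest mean log2 CPM in the same 3 libraries, 0.10 and 1.19 in PBS replicates 1 and 3 and 1.05 in SR-717 replicate 1, against 1.87 to 3.36. Its summed CPM overlapped, at 28.1 and 38.4 in PBS replicates 1 and 3. SR-717 replicate 1 was at 122, within the 66.4 to 179 of the other 6. As descriptions over the 9 libraries, Pearson r with Tnfsf11 was 0.80 for the fibroblast, -0.81 for the B cell, -0.81 for the muscle and -0.70 for the adipocyte level. For the other cell type lists it lay between -0.59 (chondrocyte) and 0.61 (T cell). The chondrocyte list (9 genes) had a mean log2 CPM of 3.08 in SR-717 replicate 1 and 5.50 in PBS replicate 1, 8.19 in PBS replicate 3, and 6.67 to 8.64 in the rest. The osteoblast list (11 genes) was lowest in SR-717 replicate 1 at 7.05 and PBS replicate 1 at 7.31, and highest in PBS replicate 3 at 8.94. The macrophage list (10 genes) was 8.20 in SR-717 replicate 1 and 7.05 in PBS replicate 1, and lowest in PBS replicate 3 at 5.67. The T cell list (8 genes, each with a count in every library) was 2.58 in SR-717 replicate 1 and 1.22 in PBS replicate 1, against 0.30 to 1.00 in the others. The neutrophil list (8 genes) was 9.08 in SR-717 replicate 1, 7.13 in PBS replicate 1 and 4.49 in PBS replicate 3, the highest and the lowest of all libraries being among these 3. Every gene of the chondrocyte, osteoblast, macrophage, T cell, neutrophil and fibroblast lists had a count in each library. The muscle list was lowest in PBS replicate 3 at 8.79 and next lowest in SR-717 replicate 1 at 9.98. It was 10.38 in PBS replicate 1, within the 10.23 to 11.33 of the other 6. The part of these cell types in the levels of Tnfsf11 was not tested. Summed CPM ran from 827 to 1750 in PBS, 954 to 1330 in H-151 and 1120 to 3490 in SR-717 for macrophages, the cells that carry most Csf1r, and from 16.0 to 28.9, 14.3 to 22.2 and 18.6 to 56.6 for T cells. Csf1r, like the macrophage list, was highest in SR-717 replicate 1, and the part of macrophage content in Csf1r was not tested.

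**Figure D5:**
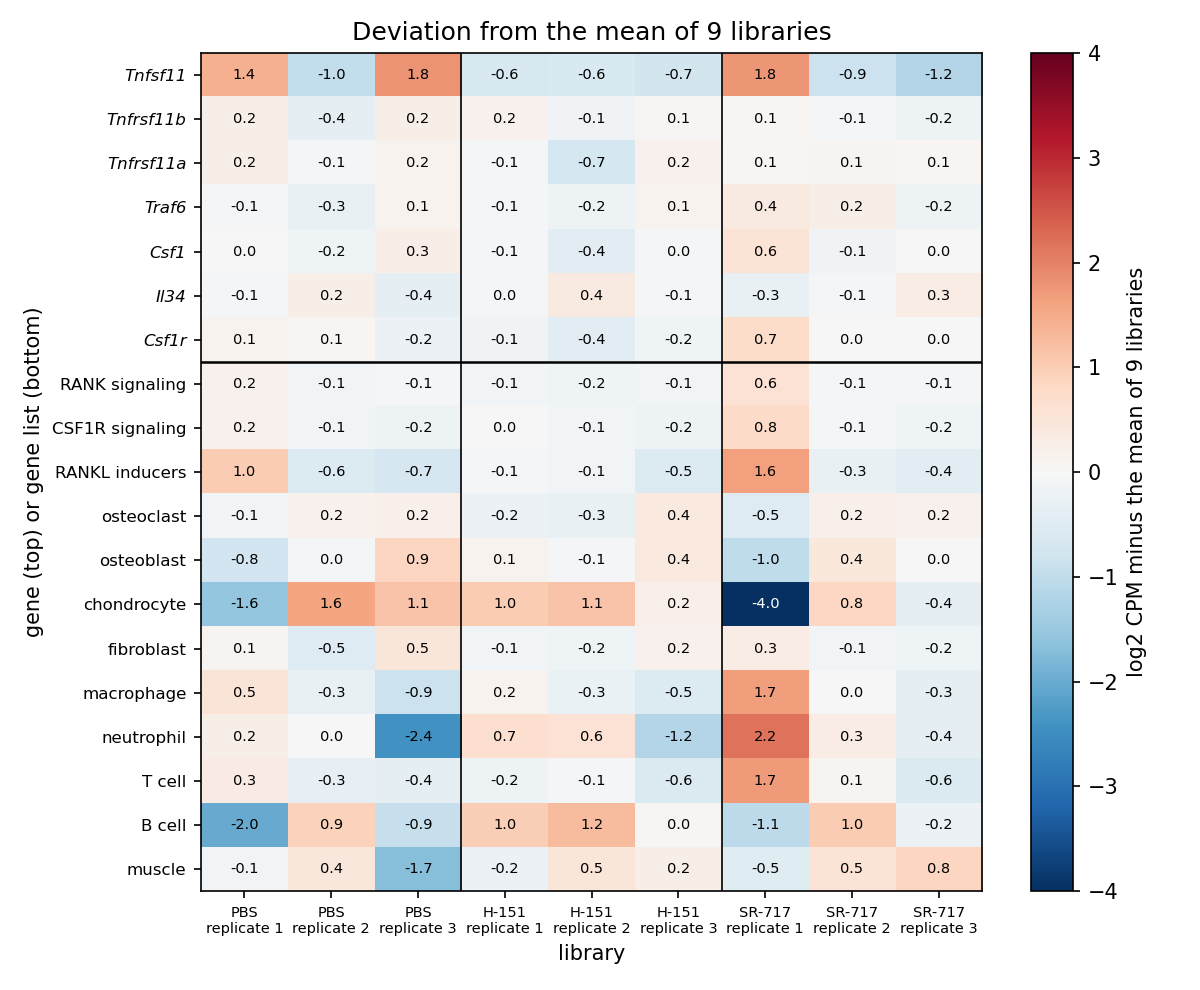
Deviation of log2 CPM from the mean of the 9 libraries for the 7 genes (top) and of the mean log2 CPM of gene lists (bottom), with libraries in columns by group. Red and blue stand for values above and below the mean, and Tnfsf11 is red in PBS replicates 1 and 3 and SR-717 replicate 1. These libraries have the lowest B cell values and fibroblast values above the mean, the latter shared with H-151 replicate 3. They differ from each other in the chondrocyte, macrophage, neutrophil and RANKL inducer rows.

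Among marker genes, 2 others passed the study's thresholds. Ms4a1, a B cell surface gene, had a log2 fold change of -1.57 ± 0.63 in SR-717 against H-151 (edgeR, adjusted p = 0.996), and Dsp, a desmosome gene of epithelia, one of 1.83 ± 0.59 in SR-717 against PBS (edgeR, adjusted p = 1). Both rested on few counts. Ms4a1 had 3, 13 and 3 counts in SR-717 replicates 1 to 3 and 25, 22 and 10 in H-151. Dsp had 48, 23 and 43 in SR-717 and 5, 23 and 7 in PBS. Neither was tested when a mean count of at least 50 was required. Ms4a1 no longer passed the study's thresholds without H-151 replicate 1 or 2 or SR-717 replicate 1 or 3 or with all 9 libraries in 1 fit, no filter or limma on TPM, and its fold change ran from -2.51 to -1.24 with a library left out. Dsp no longer passed without PBS replicate 1 or 3 or SR-717 replicate 3 or with limma on TPM, with leave-out values from 1.54 to 2.54. Over all 16 lists, 2 of 158 genes tested passed in SR-717 against H-151, 1 of 155 in SR-717 against PBS and 0 of 156 in H-151 against PBS, and 0 passed the adjusted test. With the replicate block these counts were 4, 25 and 13, beside 143 of 14151, 443 of 14070 and 263 of 14085 over all genes. Among the 25 were 7 neutrophil and 4 macrophage markers, higher in SR-717, and 7 chondrocyte markers, lower in SR-717. Among the 13 were 5 neutrophil and 4 adipocyte markers, higher in H-151. With the block, 0 genes passed the adjusted test in each comparison. None of these neutrophil, macrophage, chondrocyte and adipocyte markers passed the study's thresholds without the block.

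Over the 9 libraries, log2 CPM of Tnfsf11 correlated with that of Csf1 (Pearson r = 0.74) and Tnfrsf11b (r = 0.71), and Il34 was negatively correlated with each other member (r from -0.83 with Traf6 to -0.38 with Csf1r, the latter -0.02 without SR-717 replicate 1). These values are descriptions over libraries that share groups and composition. Without SR-717 replicate 1, r of Csf1 with Csf1r went from 0.74 to 0.30, and that of Tnfsf11 with Csf1r went from 0.42 to -0.04, whereas Tnfsf11 with Tnfrsf11b was 0.76. The genes most like Tnfsf11 over the 9 libraries were Ddx21 (r = 0.98), an RNA helicase gene, Rnf19a (0.97), a ubiquitin ligase gene, and Aff4 (0.96), a transcription elongation gene, and 72 genes had an r of at least 0.9. Ddx21 ranged only from 52.1 to 73.6 CPM, whereas Tnfsf11 ran from 3.97 to 31.7 CPM. Those most like Csf1 were Nudcd1 (0.95), Map2k1 (0.95), a MAP kinase kinase gene, and Erlin2 (0.94). By Spearman's rho, 1 of the 3 genes was kept for Tnfsf11 and 1 for Csf1, and without SR-717 replicate 1 these counts were 2 and 0.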

How the data were processed

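Bulk RNA of 9 callus libraries was analysed, assigned to 3 groups of 3 by the treatment named in the labels. The labels give bone as the tissue, although their extraction text speaks of cell lines. The authors deposited expected counts per gene, not normalized, and TPM values scaled for gene length, in 1 table with 1 column of each per library and no pooling. The build is mm10 in the submitters' processing notes, and the aligner, counting program and annotation are not given in the sources used here. All columns of per-sample values were read. The deposited expected counts, of which 8.91% were not whole, were rounded. Positions came from GENCODE M21 (GRCm38, the same build) and promoters from RefSeq.

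Genes were filtered with filterByExpr (minimum count 10, minimum total 15), scaled by TMM and tested per pair of groups with edgeR 4.0.16 quasi-likelihood in R 4.3.3, with Benjamini-Hochberg adjustment over all genes tested. The study's thresholds were taken as an unadjusted p under 0.05 and a fold of at least 1.5. Ratios were taken per library in TPM without a pseudocount, and differences in mean log2 ratio were tested with a two-sided exact permutation test. DESeq2 1.42.0 and limma 3.58.1 were alternatives. Log2 CPM had a prior count of 2. The fit was tested on simulated data. List levels are averages of log2 CPM over member genes. No 2 of the 36 library pairs agreed within sampling noise (lowest chi-square per gene 25.8).

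The members and lists were chosen with earlier results of these data known. Named were the 7 members, list genes past either rule, Lgr4, Ptprz1, Sdc1, Nfatc1, Fos, Ctsk, Acp5, Calcr, Il6, Il11, Il1b and Ptgs2, and the 3 genes of highest Pearson r with Tnfsf11, Tnfrsf11b, Csf1 and Il34. Those of Tnfrsf11b and Il34 are not reported here. Genes past a threshold with the replicate block were named after their values were seen. Replicate numbers come from the labels, which do not say what they share. Deviations from the group means of same-numbered libraries correlated over genes at 0.65, 0.34 and 0.14 for SR-717 and PBS and at 0.30, 0.49 and 0.50 for H-151 and PBS, each above 0.1. For SR-717 and H-151 they correlated at 0.34, 0.06 and 0.08. The numbers were thus taken to pair the libraries in the comparisons with PBS only. A number shared by all 3 groups would pair every comparison. Libraries that vary alike and happen to share a number can also give such correlations, so this pairing is uncertain. The main fold changes, SEs, intervals and p-values came from fits without it, and the replicate block was an alternative.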

Additional observations from a re-analysis of the deposited data

How the results depend on the processing

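Of 21 member fold changes under 273 alternatives, 257 kept their direction and 16 turned it, and 0 members passed an adjusted p under 0.05 in any of them. On limma's log2(TPM + 1) scale the SR-717 against PBS values of Csf1 and Il34 turned to -0.01 and -0.05. The other 14 turns came from leaving out 1 library. Over these, Tnfsf11 in SR-717 against H-151 ran from -0.37 (without SR-717 replicate 1) to 1.65. Il34 ran from -0.29 to 0.03 (without H-151 replicate 2) in SR-717 against H-151, from -0.14 to 0.21 in SR-717 against PBS and from -0.00422 to 0.33 in H-151 against PBS. In SR-717 against PBS, Tnfrsf11a ran from -0.11 to 0.05 and Csf1 from -0.09 to 0.27. In H-151 against PBS, Tnfrsf11b ran from -0.19 to 0.09 and Traf6 from -0.06 to 0.15. The 1 member past the study's thresholds in H-151 against PBS, Tnfsf11, became 0 with all 9 libraries in 1 fit and with limma on TPM, and 0 to 1 with a library left out. In SR-717 against PBS the count ran from 0 to 1, with Tnfsf11 past the thresholds without SR-717 replicate 1. The replicate block changed no member's call (0, 0 and 1), and the log2 fold change of Tnfsf11 in SR-717 against H-151 was 0.54 with it. The difference in log2 ratio of Tnfsf11 to Tnfrsf11b moved by less than the pooled SD under each alternative, including -0.02 as a difference of medians for SR-717 against H-151. The pooled SDs of 0.83 to 1.35 were wide enough to hold a change of direction. The value for SR-717 against H-151 turned from 0.67 to -0.20 without SR-717 replicate 1. That for SR-717 against PBS went from -0.74 to -2.0 as a difference of medians. Genes past the study's thresholds numbered 209, 138 and 83 by DESeq2 and 143, 443 and 263 with the block, against 107, 73 and 60, in the order SR-717 against H-151, SR-717 against PBS and H-151 against PBS. List genes past them numbered 0 to 25 over the alternatives. The causes were not tested. With 3 libraries a group and a gene as split as Tnfsf11, its intervals span several-fold, and Tnfrsf11b and Il34 are limited by lowest counts of 91 and 85 per library.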
